A study of Mus musculus with 16 samples.

Results

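The neural crest and border genes described here were 10 mouse transcription factor genes, Sox9, Sox10, Foxd3, Tfap2a, Tfap2b, Pax3, Snai2, Zic1, Msx1 and Msx2. They were chosen by symbol, 10 of the 24238 gene symbols in the expression matrix, and 14 of its 33701 RefSeq transcript rows carried one of these symbols. Libraries were made from total RNA of embryoid bodies, aggregates of R1 mouse embryonic stem (ES) cells that had been kept without the self-renewal factor Lif for 4 days. Day 0 was the day on which retinoic acid (RA) was added, and day 4 followed 4 days in 2 uM RA. Each day had 2 RNA samples, called replicates 1 and 2, and each RNA sample was split into 4 vials that differed in the synthetic spike-in RNAs added, with IVT mix 1, 2 or 3 or, in the vials labelled mix 4, no IVT RNA, and with ERCC mix 1 or 2. All 16 libraries came from the R1 line and from whole aggregates of mixed cells. No aggregates kept for 4 further days without RA were among the groups, so time in culture and RA cannot be told apart.

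The neural plate border is the strip of embryonic ectoderm between the future neural tube and the future epidermis, and the neural crest arises from it. BMP, WNT and FGF signals first switch on border factors such as Msx1, Msx2, Zic1, Pax3 and the AP-2 genes Tfap2a and Tfap2b. Crest specifiers such as Foxd3, Snai2, Sox9 and Sox10 follow, and the cells then leave the neural tube and form peripheral neurons, glia, pigment cells and the skeleton of the face. None of the 10 genes belongs to the crest alone. Msx1, Msx2, Snai2 and Sox9 are also known in mesodermal or mesenchymal tissues, and Foxd3 is also a factor of pluripotent cells.

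The day 0 libraries carry the label embryonic stem cells, but their aggregates had already been without Lif for 4 days. The pluripotency factor Pou5f1 stood at 87.3 and 37.2 FPKM (fragments scaled by transcript length and library total) in the RNA samples of day 0, and the mesoderm factor T (brachyury) at 72.7 and 61.3 FPKM. At day 4 Pou5f1 was at 1.03 and 0.693 FPKM, and T at 0.0238 and 0.0142 FPKM. The defining crest genes Sox10 and Foxd3 did not pass 0.26 FPKM in any of the 16 vials, so the values below are levels of genes and not of neural crest cells. In bulk RNA, fewer cells of a type and less RNA per cell cannot be told apart.

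One RNA sample was uneven between its vials. In replicate 2 of day 0, the vials with mixes 3 and 4 differed from those with mixes 1 and 2 by at least 0.5 on the log2 scale for 63.6% of the 11605 genes with a mean of at least 1 FPKM, against 1.03% to 1.59% in the other 3 RNA samples. The shift followed the GC content of the transcripts, with medians from 1.16 for genes of 34% to 36% GC to -2.98 for genes of 64% to 66% GC. Msx1, at 58.2% GC, was at 16.5 FPKM in the vials with mixes 3 and 4 and at 30.0 in the other pair, a shift of -0.86 where genes within 1 percentage point of its GC content had a median of -2.10. Snai2, at 42.6% GC, was at 2.67 against 1.65 FPKM, a shift of 0.67 where its GC neighbours had 0.58. Sox9, at 49.3% GC, was at 0.935 against 0.599 FPKM, a shift of 0.57 against a median of -0.26 in its GC neighbours, and Msx2, at 48.5% GC, stayed at 37.4 against 38.9 FPKM. Sox10, with the second highest GC content of the 10 genes at 61.7%, was at 0.0095 against 0.14 FPKM, a shift of -1.13 against -2.44 in its GC neighbours. Foxd3, with the highest at 65.1%, was at 0.054 against 0.025 FPKM, a shift of 0.30 against -3.10, although shifts of genes this low are damped by the offset of 0.1. Calls of the 10 genes and some of their changes, ranges and ratios are therefore also given without these divergent vials. Other values, among them the RNA sample means and the levels of other genes, include them unless stated.

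**Figure D1:**
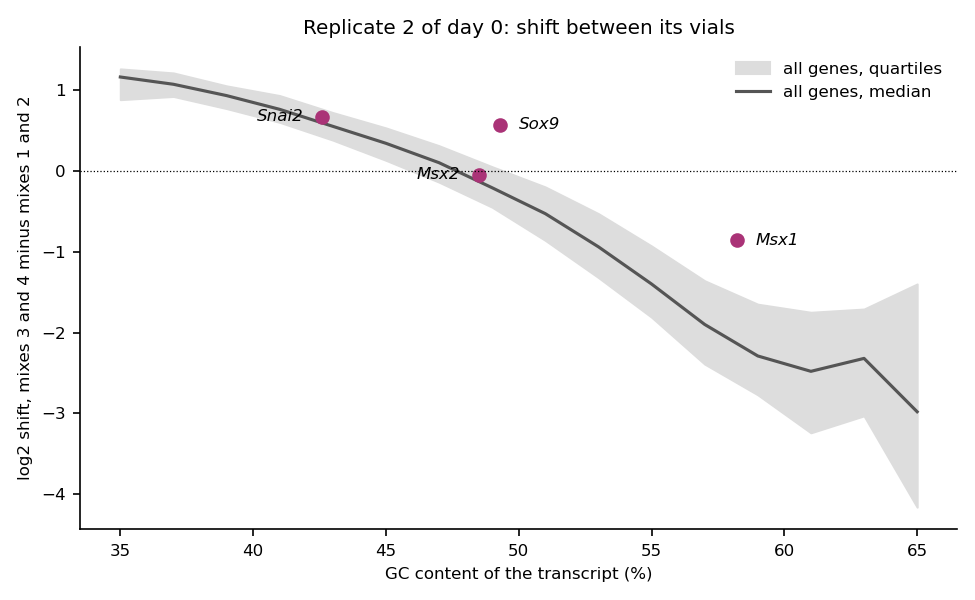
Shift between the vials of replicate 2 of day 0 (y axis, log2 of mixes 3 and 4 minus mixes 1 and 2, on log2(FPKM + 0.1)) against GC content of the transcript (x axis, %), with the median and quartiles of all genes of at least 1 FPKM in bins of 2 percentage points. The 4 labelled genes are the members with a mean of at least 0.5 FPKM, and Snai2 and Msx2 lie near the median line while Sox9 and Msx1 lie above it.

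The 10 genes split by level into 4 that were clearly present and 6 that were close to the lowest value the matrix can hold. Msx1, Msx2, Snai2 and Sox9 had means of at least 0.5 FPKM, and the other 6 stayed below 0.5 FPKM in all 16 vials. The smallest value above 0 in a library was 0.009 to 0.011 FPKM, so a gene at 0.05 FPKM lies only a few such steps above 0. At day 0 the order of the mean levels was Msx2, Msx1, Snai2, Sox9, Pax3, Sox10, Tfap2a, Foxd3, Zic1 and Tfap2b. Msx2 and Msx1 overlapped in their vials, Msx1, Snai2 and Sox9 were each separate from the next, and from Pax3 downward every neighbour overlapped the next. At day 4 the order was Snai2, Msx2, Sox9, Msx1, Zic1, Pax3, Tfap2b, Tfap2a, Sox10 and Foxd3. Snai2 was above all others in every vial, Msx2 and Sox9 overlapped, Msx1 lay below Sox9 and above Zic1 without overlap, and the 6 low genes overlapped from neighbour to neighbour.

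**Figure D2:**
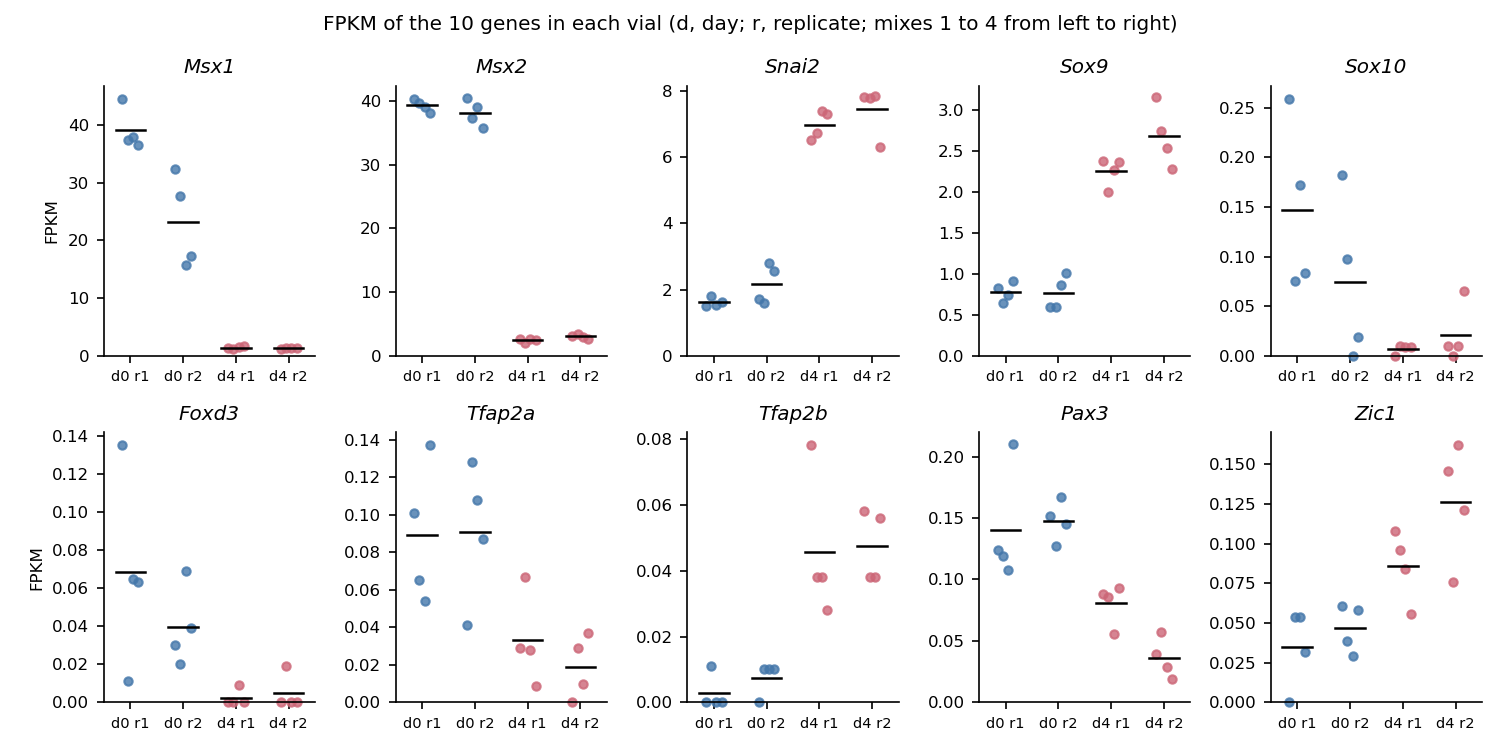
FPKM (y axis, a scale of its own for each gene) of the 10 genes in the 4 vials of each RNA sample (x axis), with points for vials with mixes 1 to 4 from left to right and a bar for their mean. Msx1 and Msx2 are high at day 0, Snai2 and Sox9 are high at day 4, and the other 6 genes stay below 0.26 FPKM.

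The comparison of day 4 with day 0 asked how these genes moved as the aggregates differentiated in RA. Changes were fitted with limma on log2(FPKM + 0.1), a scale that understates the change of genes near 0, over the 2 RNA samples of each day, with adjusted p at most 0.05 as the call. Of the 10 genes, 8 passed, 3 higher and 5 lower at day 4, where the test called 30.4% of the 20553 genes tested, 16% higher and 14.5% lower. All 4 of the genes with a mean of at least 0.5 FPKM were called, against 34.1% of all genes at that level, and 4 of the 6 lower genes were called, against 24.7% of all genes under 0.5 FPKM. The median change of the 10 genes was -0.58, and that of all genes tested was -0.03. The 8 vials of one day lay apart from the 8 of the other for 6 of the 10 genes, 3 in each direction, as they did for 34.3% of all genes, 19.8% upward and 14.6% downward. The vials are splits of 2 RNA samples and not replicates.

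**Figure D3:**
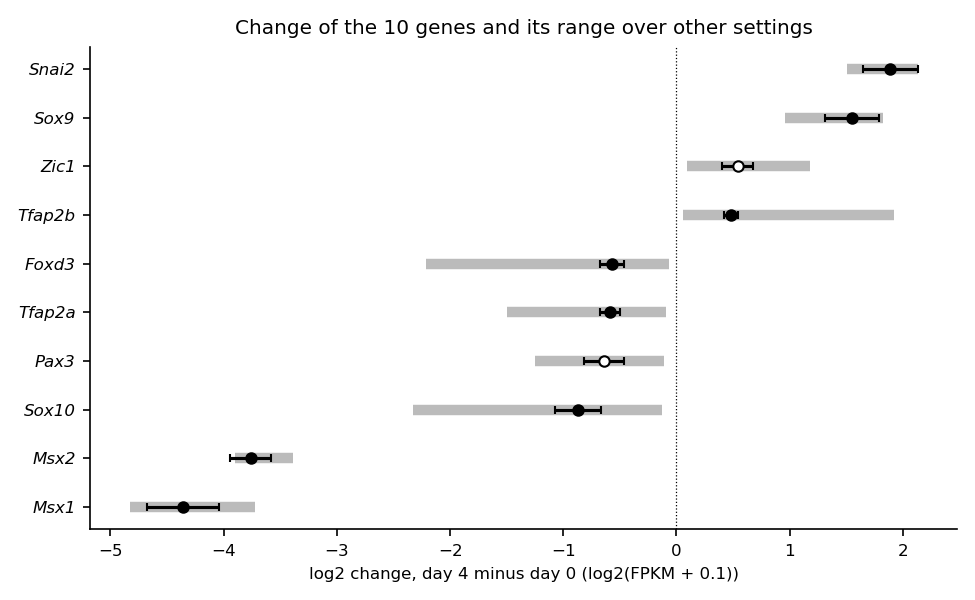
Change of each gene from day 0 to day 4 (x axis, log2(FPKM + 0.1)), with points for the limma estimate, bars for 1 SE, filled points for genes that passed the test and grey bands for the range over the 18 other settings (1 fewer for the 6 low genes). No band crosses 0, and Msx1 and Msx2 lie far from the other 8 genes.

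Msx1 and Msx2, homeodomain repressors that respond to BMP signals and mark the early border, fell most on the log2(FPKM + 0.1) scale. Msx1 (chromosome 5, 37820491 to 37824585 in GRCm38) ranged over 15.7 to 44.6 FPKM in the vials of day 0 (median 34.5) and over 1.17 to 1.63 in those of day 4 (median 1.35). Its RNA sample means were 39.1 and 23.3 FPKM at day 0 and 1.42 and 1.33 at day 4, a 22.7-fold lower mean. The fitted change was -4.36 on the log2 scale (SE 0.32, limma adjusted p = 0.00585). Every vial of day 0 was above every vial of day 4, and the lowest of day 0 were the vials with mixes 3 and 4 of replicate 2, at 15.7 and 17.3 FPKM. The other 6 vials of day 0 still spanned 27.7 to 44.6 FPKM, with replicate 2 below replicate 1. Msx2 (chromosome 13, 53466881 to 53472780) was the steadiest of the 10 genes at day 0, at 35.8 to 40.4 FPKM (median 39.1), and its vials of day 4 held 2.1 to 3.49 (median 2.71). Its RNA sample means of 39.3 and 38.2 FPKM became 2.5 and 3.08, a 13.9-fold lower mean and a change of -3.76 (SE 0.18, limma adjusted p = 0.00468). Among all 24238 genes, including those at 0 in every library, Msx1 went from the 88.3 percentile of the level to the 56.6 percentile, and Msx2 from the 90.5 to the 62.5 percentile. The ratio of Msx1 to Msx2 was 0.995 and 0.607 in the RNA samples of day 0 and 0.57 and 0.435 at day 4, and in single vials 0.402 to 1.11 and then 0.375 to 0.643. Without the mix 3 and 4 vials of replicate 2 of day 0, the lowest vial of day 0 was at 0.741, and the days did not overlap.

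The promoters of these paired genes are shown because both fell from high levels. Each is 300 bases from RefSeq (GRCm38.p6, 250 before to 50 after the gene's start), read on the minus strand from 5′ to 3′, with CCAAT on either strand and the homeodomain letters TAATTA in capitals.
Msx1, chr5:37824536-37824835: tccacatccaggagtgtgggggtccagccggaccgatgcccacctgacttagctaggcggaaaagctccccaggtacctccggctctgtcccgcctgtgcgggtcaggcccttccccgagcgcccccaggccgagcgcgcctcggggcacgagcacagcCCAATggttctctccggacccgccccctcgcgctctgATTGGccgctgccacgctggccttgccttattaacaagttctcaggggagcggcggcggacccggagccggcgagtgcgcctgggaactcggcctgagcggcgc
Msx2, chr13:53472731-53473030: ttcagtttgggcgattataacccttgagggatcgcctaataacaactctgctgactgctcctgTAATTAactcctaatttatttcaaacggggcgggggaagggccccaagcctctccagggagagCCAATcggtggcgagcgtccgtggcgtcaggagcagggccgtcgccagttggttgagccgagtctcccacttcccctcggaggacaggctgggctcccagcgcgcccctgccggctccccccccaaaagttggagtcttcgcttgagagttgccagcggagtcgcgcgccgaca
The Msx1 promoter was 70% G and C, and that of Msx2 was 61%, where the median of all 32817 promoters was 52.7%. The promoters of Foxd3 (65.7%) and Zic1 (65.3%) and one of Tfap2a (61%) also lay above that median. The other of Tfap2a (46.3%) and that of Tfap2b (48.3%) lay below it. Counted in bases from the gene's start, CCAAT began at -91 and, on the other strand, at -54 in Msx1. In Msx2 it began at -124 and TAATTA at -187. CCAAT stood in 37.4% of all promoters and TAATTA in 5.3%, and both were added to the search after these sequences had been seen. Sequences were found for 6 of the 10 genes, with 7 promoters in all because Tfap2a had a pair. The promoters of Tfap2a and Tfap2b lay at starts inside the gene spans given below, and not at the 5′ ends of those spans. On both strands of these 7, the retinoic acid receptor core site AGGTCA, the TCF/LEF letters CTTTGA and TATAAA were in none, where 16.3%, 16% and 13.6% of all promoters held them. The core site repeated with 5 bases between was also in none, and was in 3 of all 32817. The MSX letters TAATTG were in the promoter of Tfap2b and in one of Tfap2a (8% of all), GGCGCC, a Smad motif, was in those of Tfap2b and Zic1 (11.9%), and the AP-2 letters GCCNNNGGC were in that of Zic1 (16.6%). CCAAT was also in the promoter of Zic1, and so in 3 of the 7. TAATTA was also in one of Tfap2a, and so in 2 of the 7. None of these matches overlapped another, and a match is a description of letters only.

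Snai2 and Sox9 were the crest specifiers that rose. Snai2 (chromosome 16, 14705852 to 14709395), also called Slug, a zinc finger repressor that lowers cadherin genes as crest cells leave the epithelium, ranged over 1.51 to 2.79 FPKM in the vials of day 0 (median 1.67) and over 6.3 to 7.83 in those of day 4 (median 7.35). Its RNA sample means were 1.62 and 2.16 FPKM at day 0 and 6.98 and 7.44 at day 4, 3.81-fold higher, with a change of 1.89 (SE 0.24, limma adjusted p = 0.0143). The days did not overlap, although the day 0 vials with mixes 3 and 4 of replicate 2 were the highest of that day, at 2.79 and 2.55. Sox9 (chromosome 11, 112782210 to 112787757), an HMG box factor needed for early crest and for cartilage, was at 0.598 to 1.01 FPKM (median 0.788) before RA and at 2 to 3.17 (median 2.37) after it. The RNA sample means of 0.784 and 0.767 FPKM became 2.25 and 2.68, a 3.18-fold rise and a change of 1.55 (SE 0.24, limma adjusted p = 0.0216). The ratio of the pair overlapped between the days, since Snai2 was 1.79 to 3.23 times the level of Sox9 in the vials of day 0 and 2.47 to 3.35 times at day 4.

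These opposite moves changed which gene led the group. The summed level of the 10 genes was 57 to 87.8 FPKM in the vials of day 0 and 12.3 to 15.6 at day 4. Msx1 and Msx2 made up 93.1% to 96.6% of that sum at day 0 and 26.8% to 31.4% at day 4. Snai2 and Sox9 made up 2.67% to 6.25% at day 0 (at most 3.29% without the divergent vials) and 66.3% to 70.8% at day 4, without overlap. Msx2 was 14 to 26.7 times the level of Snai2 at day 0 (at least 21.8 times without the divergent vials), and Snai2 was 2.23 to 3.2 times that of Msx2 at day 4. The other 6 genes together reached 0.335 to 0.619 FPKM at day 0 and 0.195 to 0.303 at day 4. This description rests on the 4 abundant genes and was not tested as a score.

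**Figure D4:**
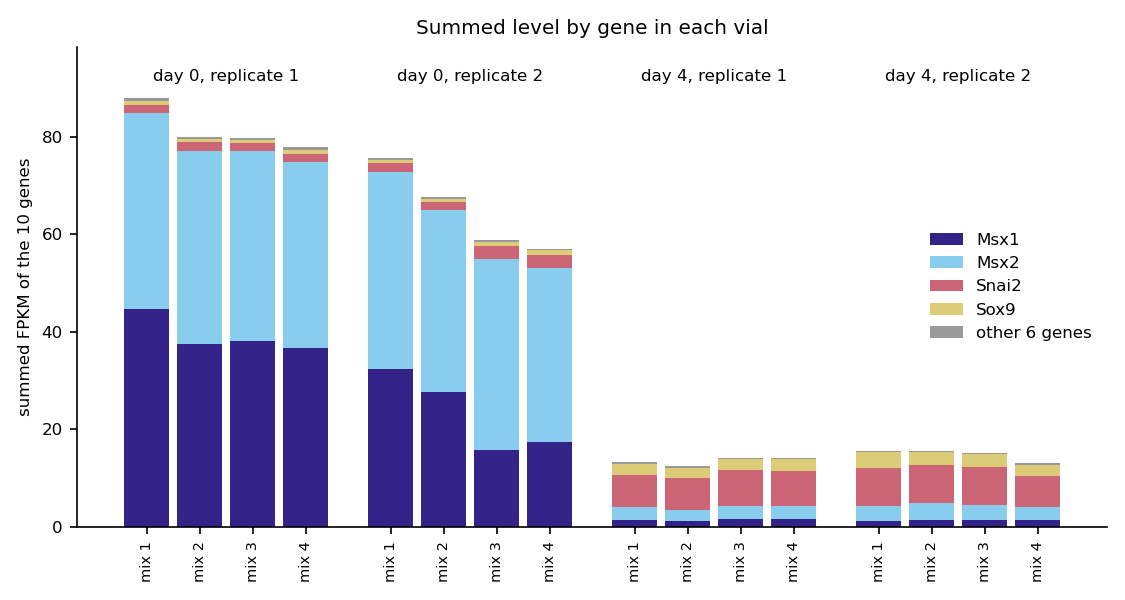
Summed FPKM of the 10 genes (y axis) in each of the 16 vials (x axis, by IVT mix within each RNA sample), with a colour for each of the 4 abundant genes and grey for the other 6. The sum lies between 57 and 87.8 FPKM at day 0, mostly Msx1 and Msx2, and between 12.3 and 15.6 FPKM at day 4, mostly Snai2 and Sox9.

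The other specifiers were near the floor on both days. Sox10 (chromosome 15, 79154913 to 79164490), which maintains crest cells and their glial and pigment fates, had RNA sample means of 0.147 and 0.0748 FPKM at day 0 and 0.007 and 0.0213 at day 4. Its vials spanned 0 to 0.259 FPKM (median 0.091) on the first day and 0 to 0.065 (median 0.0095) on the second. The days overlapped, and the change of -0.87 (SE 0.20, limma adjusted p = 0.0475) lay just inside the threshold. Foxd3 (chromosome 4, 99656299 to 99658671), a forkhead factor of early crest and of pluripotent cells, had means of 0.0685 and 0.0395 FPKM at day 0 and 0.00225 and 0.00475 at day 4. It was listed above 0 in every vial of day 0, at 0.011 to 0.135 FPKM with a median of 0.051, and at 0 in 6 of the 8 vials of day 4, where the highest held 0.019. Its change was -0.57 (SE 0.11, limma adjusted p = 0.0345), and the days overlapped. As a ratio of means this was 15.4-fold lower, between Msx1 and Msx2, but from a level near the floor.

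The AP-2 genes went opposite ways at these low levels. Tfap2a (chromosome 13, 40713802 to 40738238), an early inducer of border and crest, had RNA sample means of 0.0892 and 0.091 FPKM at day 0 and 0.0333 and 0.019 at day 4, with a change of -0.59 (SE 0.09, limma adjusted p = 0.0217). Its vials spanned 0.041 to 0.137 FPKM (median 0.094) and 0 to 0.067 (median 0.0285), so the days overlapped. Tfap2b (chromosome 1, 19208908 to 19238845), its close relative, was listed at 0 in 4 vials of day 0 and reached 0.011 FPKM in the highest, with a median of 0.005. At day 4 it was above 0 in every vial, at 0.028 to 0.078 FPKM with a median of 0.038. The RNA sample means went from 0.00275 and 0.0075 to 0.0455 and 0.0475 FPKM, with a change of 0.48 (SE 0.06, limma adjusted p = 0.0146), and the days did not overlap. The rise left Tfap2b below 0.08 FPKM.

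Pax3 and Zic1 did not pass the test without a replicate term, and passed with the replicate number as a block (limma adjusted p = 0.0138 and 0.011). Pax3 (chromosome 1, 78101267 to 78197136), a paired box factor of the border and dorsal neural tube, had RNA sample means of 0.14 and 0.148 FPKM at day 0 and 0.0807 and 0.036 at day 4. The vials were at 0.108 to 0.21 FPKM (median 0.136) and 0.019 to 0.093 (median 0.0565), without overlap, but the replicates of day 4 stood apart and the change of -0.64 (SE 0.18) had a limma adjusted p of 0.0646. Zic1 (chromosome 9, 91358058 to 91365768), a zinc finger factor of the border and dorsal neural tube, had means of 0.035 and 0.0467 FPKM at day 0 and 0.086 and 0.126 at day 4. Its vials spanned 0 to 0.061 FPKM (median 0.0465) and 0.056 to 0.162 (median 0.102), which overlapped, and the change of 0.54 (SE 0.14) had a limma adjusted p of 0.0541.

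Without the mix 3 and 4 vials of replicate 2 of day 0, limma called 9 of the 10 genes, 4 higher and 5 lower, where it called 61.4% of all genes. Pax3 (adjusted p = 0.0346) and Zic1 (adjusted p = 0.0296) then passed, while Foxd3 (adjusted p = 0.0592) no longer did. Msx1, Msx2, Snai2, Sox9, Sox10, Tfap2a and Tfap2b passed with and without these vials, in the same directions. Their changes without the vials were -4.54 for Msx1, -3.77 for Msx2, 2.07 for Snai2, 1.70 for Sox9 and -1.10 for Sox10, and those of Tfap2a and Tfap2b were -0.57 and 0.50. The 3 genes whose call differed were all among the 6 low ones.

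Tfap2a, Tfap2b and Pax3 had several RefSeq transcripts each, and none had an isoform that both passed the test and reached 0.1 FPKM as a mean. For Tfap2b, NM_009334 carried the rise, above 0 in 3 vials of day 0 and in 7 of day 4 (change 0.40, SE 0.07, limma adjusted p = 0.0398, where 18.9% of all 28213 transcripts were called). Its transcripts NM_001025305 and NM_001286340 were above 0 in at most 1 vial of either day. For Tfap2a, NM_011547 was above 0 in 6 vials of day 0 and 7 of day 4, and NM_001122948 was above 0 only in 2 vials of day 0, with at most 0.101 FPKM. For Pax3, NM_008781 was above 0 in all 8 vials of day 0 and 5 of day 4, and NM_001159520 in 5 and 4. The limma adjusted p of the Tfap2a and Pax3 transcripts was between 0.161 and 0.388. Fragments that isoforms share are divided by the authors' estimation, so the split between rows this low is uncertain. Fitted as transcripts, Sox10 (limma adjusted p = 0.0694) and Foxd3 (limma adjusted p = 0.0543), each with 1 transcript, did not pass.

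Close relatives of the genes, chosen after the values were known, moved in their own ways. Snai1, the other Snail repressor of epithelial genes, was at 4.14 and 1.44 FPKM at day 0 and at 0.292 and 0.305 at day 4 (change -2.68, limma adjusted p = 0.0391), opposite to Snai2. At day 0 Snai1 and Snai2 were at 2.79 and 1.89 FPKM as means, and at day 4 at 0.298 and 7.21. Zic2, which acts in early neural development, was at 2.7 and 3.75 FPKM at day 0 and at 0.079 and 0.0648 at day 4 (change -4.26, limma adjusted p = 0.00535), while Zic1 stayed under 0.17 FPKM. Tfap2c, the AP-2 gene of early ectoderm and germ cells, went from 6.49 and 4.72 FPKM to 0.386 and 0.24 (change -3.79, limma adjusted p = 0.00785), above Tfap2a and Tfap2b on both days. Foxd1 and Foxd2, forkhead relatives of Foxd3, rose from 0.235 and 0.0505 FPKM as means to 2.99 and 2.96 (changes 3.19 and 4.34, limma adjusted p = 0.0083 and 0.00468). Pax7, the paralogue of Pax3, was at most 0.0545 FPKM in an RNA sample, and Sox8, the third SoxE gene, was at 0.241 and 0.173 FPKM as means, which did not pass (limma adjusted p = 0.252).

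Genes of the same pathway were counted over lists drawn up with earlier results of these data known. Of all genes tested, 30.4% were called, 16% higher and 14.5% lower. Of 28 other border and specifier factors, 60.7% were called, 6 higher and 11 lower at day 4. Meis2, a TALE homeodomain cofactor known to respond to RA, rose from 1.31 and 1.42 to 66.9 FPKM in both replicates, and Id2, an inhibitor of helix-loop-helix factors, from a mean of 33 to 158 FPKM. Myc fell from 36.5 and 18.3 to 1.33 and 1.09 FPKM. Of 22 genes of the inducing signals, 63.6% were called, 2 higher and 12 lower. The ligand Fgf3 fell most, from 43.2 and 17.5 to 0.00475 and 0.0215 FPKM. Rspo1, a WNT potentiator, rose from 0.467 and 0.233 to 4.35 and 4.66 FPKM, and Rspo3, the most abundant of the list at day 4, was at 47.4 and 32.6 FPKM as means and did not pass. Of the BMP ligands in the list, named after their values were seen, Bmp4 fell from a mean of 42.1 to 3.31 FPKM, Bmp2 from 11.3 to 0.589 and Bmp6 from 1.44 to 0.289. Bmp7, at 8.67 and 4.28, and Bmp5, at 3.82 and 6.69, did not pass. The list also holds antagonists of such ligands. Of these, Fst fell from 13.5 to 1.88 FPKM and Nog from 3.33 to 1.26, while Chrd and Grem1 did not pass. Any link of these ligands and antagonists to the Msx genes was not tested.

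Genes of later crest steps moved in both directions. The test called 51.7% of the migratory, 55% of the mesenchyme, 53.3% of the glia and melanocyte and 54.5% of the neuron list. Over all genes it called 30.4%, 16% higher and 14.5% lower. Of 29 migratory receptors and adhesion genes, 8 were higher and 7 lower, with Sema3c, a guidance ligand, rising from 0.32 and 0.369 to 36 and 42.5 FPKM, Plxnd1, a semaphorin receptor, falling from 13.1 and 4.29 to 1.27 and 0.931, and Itgb1, an integrin subunit, at 202 and 273 FPKM as means without a call. Of 20 crest mesenchyme and cartilage genes, 7 were higher and 4 lower, with Foxc2 rising from 0.136 and 0.106 to 13.7 and 16.3 FPKM and Hand1, also a mesoderm marker, falling from 36 and 18.3 to 0.0575 and 0.0238. Of 15 glia and melanocyte genes, 4 rose and 4 fell, and the most abundant at day 4, the myelin gene Pmp22, fell from a mean of 150 to 41.5 FPKM. Pou3f1, a factor of Schwann cells and of early epiblast, rose from 0.647 to 4.74 FPKM as means, and Mlana, a melanosome gene, fell from 0.909 to 0.0189. Of 22 sensory and autonomic neuron genes, 6 rose and 6 fell, with the receptor Ntrk2 rising from 0.0407 to 0.877 FPKM as means, the neuronal filament gene Prph falling from 9.08 to 0.0668, and Gata2 at 4.62 and 4.52 without a call.

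**Figure D5:**
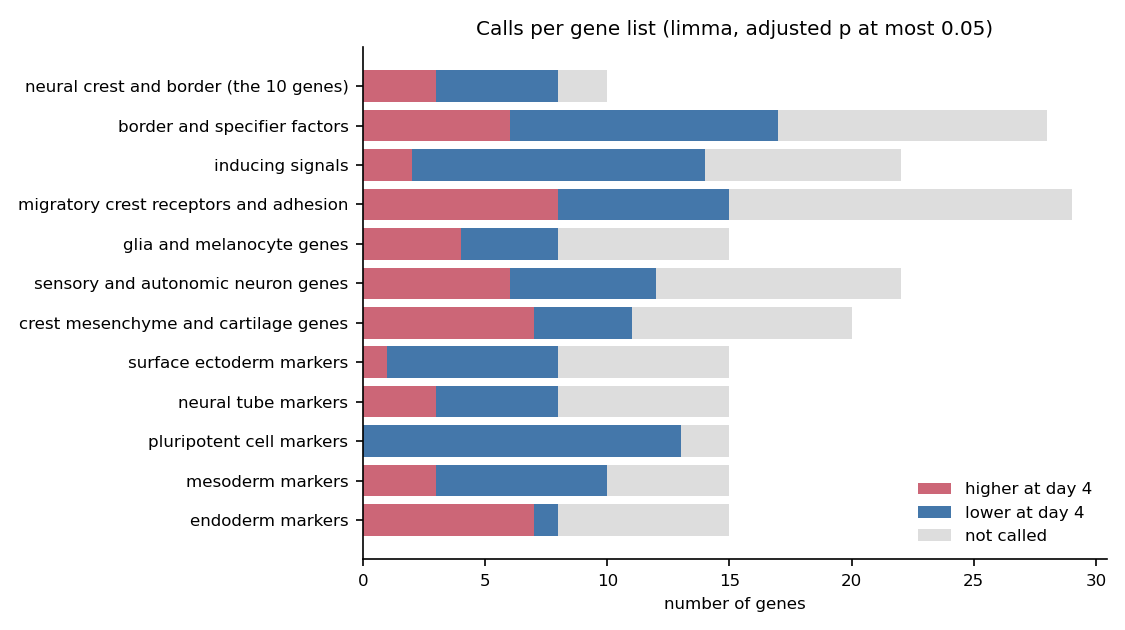
Number of genes (x axis) called higher, called lower or not called at day 4 against day 0 in each gene list (y axis, limma adjusted p at most 0.05). Of the 10 neural crest and border genes 3 were higher and 5 lower, and of the 28 other border and specifier factors 6 were higher and 11 lower. Over all genes tested, 30.4% were called, 16% higher and 14.5% lower.

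Markers of other cell types moved over the same days. The test called 86.7% of the pluripotent list, 66.7% of the mesoderm list and 53.3% each of the surface ectoderm, endoderm and neural tube lists. Over all genes it called 30.4%, 16% higher and 14.5% lower. Of 15 pluripotent cell markers, 13 fell and none rose, with their summed level at 262 to 404 FPKM in the vials of day 0 and 14.9 to 20.8 at day 4. In this list Tdgf1 fell from 51.4 to 0.388 FPKM as means, and Dppa5a, the highest left at day 4, from 39.8 to 5.17. Of 15 mesoderm markers, 7 fell and 3 rose, their sum going from 206 to 279 down to 78.2 to 88.8 FPKM, with T at a change of -9.13 on the log2 scale, Tbx5 rising from 0.0257 to 1.55 FPKM as means and Foxf1 at 22.5 and 30.5 without a call. Mesp1 and Nkx2-5, which mark early and cardiac mesoderm, were listed at 0 in all vials of day 4. Mesp1 fell from a mean of 5.82 FPKM (limma adjusted p = 0.00545), but Nkx2-5, from 0.207, did not pass (limma adjusted p = 0.0604). The 3 that rose were Tbx5, Gata4, from 6.6 to 18.6 FPKM as means, and Meox1, from 0.164 to 2.78. Of 15 surface ectoderm markers, 7 fell and 1 rose, their sum at 161 to 1070 FPKM at day 0 and 76.8 to 114 at day 4. Krt8 went from 469 and 179 to 21.2 and 15.8 FPKM, Krt18 from 365 and 168 to 28.8 and 22.7, and Trp63 from 0.0085 and 0.0147 to 0.18 and 0.248. Of 15 endoderm markers, 7 rose and 1 fell, their sum going from 21.4 to 27.2 up to 85.3 to 88.3 FPKM, with Gata6 at 6.36 and 54.4 FPKM as means, Apoa1 at 0.0511 and 1.34, and Sox7, which fell, at 3.38 and 1.02. Of 15 neural tube markers, 3 rose and 5 fell, their sum at 40.5 to 58.9 and 50.3 to 54 FPKM, with Lhx2 rising from 0.142 to 20.8 FPKM as means and Tubb3 falling from 12 to 0.761. Msx1 and Msx2 fell over the same days as the pluripotent, mesoderm and surface ectoderm sums. Snai2 and Sox9 rose over the same days as the endoderm sum, most of which at day 4 was Gata6 and Gata4. Gata4 is in both the endoderm and the mesoderm list, and Sox17 was not called. The sums of the other border and specifier factors (261 to 463 FPKM at day 0, 485 to 536 at day 4) and of the migratory receptors (530 to 603, then 685 to 760) were also higher at day 4 in every vial. The sum of the crest mesenchyme and cartilage genes overlapped between the days, at 18.1 to 65 FPKM and then 40.7 to 49.3. Of its 20 genes 7 were higher and 4 lower. Its Hand1 fell from 27.1 to 0.0406 FPKM as means, and its Foxc2 rose from 0.121 to 15. The part of any of these cell types in the changes of the 10 genes was not tested.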

How the data were processed

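Total RNA of R1 embryoid bodies was depleted of ribosomal RNA and sequenced as stranded paired-end libraries, 16 in all. The deposited matrix holds FPKM values, which the authors estimated with RSEM 1.2.18 and Bowtie2 2.1.0 on RefSeq transcripts of mm10 (GRCm38) with the spike-ins added, and multiplied by a TMM factor. TopHat2 2.0.10 is also listed in the submitters' processing notes. Fragment counts were not used here, so the number of fragments behind a value was not worked out and no counting interval is given. The study lists read totals per library. Summed FPKM per library was 411090 to 622888.

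Of 33750 rows, 48 spike-in rows and 1 other row were left out, and 98.6% of the remaining 33701 matched a RefSeq symbol. A gene was the sum of its transcripts. Each RNA sample was the mean of its 4 vials, and which vials shared an RNA sample was taken from the study's sample list. Of 24238 genes, the 20553 above 0 in any library were tested with limma 3.58.1 (R 4.3.3, lmFit and eBayes with trend) on log2(FPKM + 0.1), 2 RNA samples against 2, with Benjamini-Hochberg adjustment over all genes and a threshold of 0.05. Transcripts were tested likewise. The study describes the replicates as biological, from a repeat of the procedure, and the labels say no more of their origin. The script was tested on simulated data. Tables were made with pandas 2.3.3 and figures with matplotlib 3.10.9.

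The 10 genes and all lists were chosen with earlier results of these data known. Named in each other list were the called genes with the largest rise and fall and the gene with the highest mean at day 4. Pou5f1, the BMP ligands and antagonists, Mesp1, Nkx2-5, Gata4, Meox1, Sox17 and the relatives were named after their values were seen. Alternatives were 18 settings of offset, vials, filter, scaling, block and left-out replicates. Ratios without the divergent vials were added after seeing the data. No protein sequence was used, and some relatives are not reported here.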

Additional observations from a re-analysis of the deposited data

Results flagged for a closer look

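Across the 8 vials of a day, 20 groups of values were examined for a single vial far from the rest, and 3 stood out. For independent, normally spread values chance would give about 1 in 20. All 3 were high values of genes near the floor. Sox10 was at 0.065 FPKM in the mix 4 vial of replicate 2 at day 4, and the next highest vial of that day was at 0.01. Foxd3 was at 0.135 FPKM in the mix 1 vial of replicate 1 at day 0, with the next at 0.069. It was also at 0.019 FPKM in the mix 2 vial of replicate 2 at day 4, with the next at 0.009. The vials come from 2 RNA samples, so the 8 values are not independent. Foxd3 was at 0 in 6 vials of day 4, so that rate does not apply to it. Msx1, Msx2, Snai2 and Sox9 had no such vial on either day. A search for a single vial cannot flag 2 that lie apart together, as the mix 3 and 4 vials of replicate 2 of day 0 did for Msx1.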

How the results depend on the processing

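No gene of the 10 changed direction under any of the 18 settings. Msx1 kept its call in 15 of 18 settings (changes from -4.83 to -3.72), Msx2 in 16 (-3.90 to -3.39), and Snai2 (1.51 to 2.13) and Sox9 (0.96 to 1.82) in 14 each, whereas Sox10 and Foxd3 were called in 8 of 17, Tfap2a in 10, Tfap2b in 12, Zic1 in 4 and Pax3 in 3. The count of genes called higher, 3 with all data, was 0 in the vials with mix 3 alone and 0 with mix 4 alone. The count called lower, 5 with all data, was 3 without the variance trend, 3 with an offset of 1, 3 with mix 1 alone, 3 with mix 2 alone, 1 with mix 3 alone, 2 with mix 4 alone, and 2 of the 4 genes left by a minimum mean of 0.5 FPKM. The shares of all genes called were 28.2% without the trend, 25% with the offset of 1 and 38.1% with that minimum. With mix 1, 2, 3 or 4 alone the shares were 65.2%, 50.7%, 2.39% and 5.91%. Leaving out an RNA sample gave 0 to 3 higher and 0 to 5 lower. Without replicate 1 of day 0 the count called lower was 3, with 24.6% of all genes called. Without replicate 1 or replicate 2 of day 4, limma called 0 of all genes (4869 and 4579 at an unadjusted p of at most 0.05), and 7 of the 10 genes had such an unadjusted p each time. The lone RNA sample of a day was then assumed to vary like the other day's.

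With the replicate number as a block, all 10 genes were called, 4 higher and 6 lower, with 51.5% of all genes called, and Pax3 (adjusted p = 0.0138) and Zic1 (adjusted p = 0.011) passed. Same-numbered RNA samples deviated together (r = 0.753 over 11605 genes), but with 2 pairs this is only a hint of pairing. With 16 libraries and the RNA sample as a random block, 4 were higher and 5 lower, where limma called 45.9% of all genes. Sox10 was then not called (adjusted p = 0.101). Among the lists, the count called lower moved by over 1.5 times for migratory receptors (7 to 12 with the block, and 12 without the divergent vials of day 0), crest mesenchyme (7 with the block), glia and melanocyte genes (7 without those vials), surface ectoderm (12 without them, with 2 higher) and endoderm (3 and 4). Rescaling the libraries moved the median of all genes from -0.03 to 0.05. The cause of these differences was not tested. Of 20553 genes tested, 6255 were called with all data, 10583 with the block and 9430 with the random block. With mix 1 alone 12310 of 18889 were called, with mix 2 alone 9622 of 18985. With mix 3 alone 454 of 18981 were called, and with mix 4 alone 1119 of 18942. Without the divergent vials 12545 of 20440 were called. Genes below about 0.1 FPKM lie within a few steps of 0.01 FPKM, so their changes depend on the offset.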
